A study of Mus musculus with 4 samples.

Results

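Deeply sequenced testis cells of mice given busulfan were compared with and without alginate oligosaccharides (AOS). Busulfan is an alkylating drug that kills dividing germ cells, and AOS are short chains released when the seaweed polysaccharide alginate is broken down. The cells were selected on their own sequencing depth, the number of unique molecular identifiers (UMIs, tags that mark single captured RNA molecules) recovered per cell. Every cell with at least 9013 UMIs was kept, and that limit was the lowest UMI count of any cell in the busulfan plus AOS library. It kept 448 of the 4659 cells of the busulfan library (B0) and 3778 of the 3778 cells of the busulfan plus AOS library (BA10), together 4226 of the 27060 cells in the series. Because the limit was a measured value of one library, cell number and depth are given here as a description only.

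ICR males were 3 weeks old at the start. B0 mice received busulfan at 40 mg/kg body weight once and then water for 5 weeks. BA10 mice received the same busulfan dose and then AOS at 10 mg/kg for 5 weeks. The control library (A0, water without busulfan) and the AOS library (A10, AOS at 10 mg/kg without busulfan) are given as reference levels, and 7901 and 6691 of their cells passed the same limit. Each library was 1 10x Genomics 3′ preparation of digested seminiferous tubules from 6 pooled mice, so no spread between mice can be measured. With 1 library a side there is no test of the treatment: all limits below cover counting error only, and a difference between B0 and BA10 is a difference between these 2 libraries.

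Spermatogenesis runs from dividing spermatogonia through the long prophase of meiosis in spermatocytes to haploid spermatids, which build the acrosome and the tail and repack their DNA by replacing histones first with transition proteins and then with protamines. In pachytene spermatocytes the X and Y chromosomes are silenced and set apart in the sex body, and part of this repression lasts into spermatids, where some X-linked genes are switched on again. Leydig cells between the tubules make androgen, Sertoli cells inside the tubules nurse the germ cells, and both can release RNA during tissue digestion that is then captured beside germ cells.

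The B0 cells that passed the limit were the upper tail of their library, whereas the BA10 cells were the whole of theirs. The B0 cells made up 9.62% of the library's cells and 27.1% of its UMIs, with 6859971 UMIs in all, a median of 11693.5 UMIs and a median of 3622 genes per cell. The BA10 cells held 91304225 UMIs, a median of 17989 UMIs and a median of 4105 genes. The B0 cells nearest to the limit held 8984, 8985 and 9012 UMIs outside it and 9018, 9035 and 9042 inside it, and the 3 shallowest BA10 cells held 9013, 9017 and 9020. When each cell was thinned at random to 9013 UMIs the median number of genes was 3083.5 in B0, 2909 in BA10 and 2941 in A0, so at equal depth the BA10 cells showed slightly fewer genes than the B0 cells, the reverse of the order before thinning. The deep cells of B0 and BA10 shared 6 cell barcodes, and the doublet caller Scrublet marked 1 deep B0 cell and 48 BA10 cells. Leaving out either set kept the counts of genes given next within 1.5 times.

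**Figure D1:**
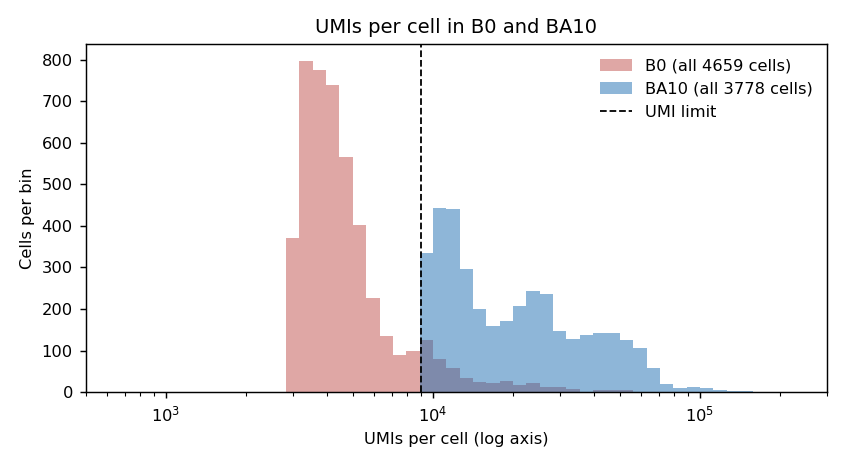
Number of cells per bin of UMIs per cell (log axis) for all cells of B0 (red) and BA10 (blue), with the limit of 9013 UMIs as a dashed line. All 3778 BA10 cells lie at or above the line, and 448 of the 4659 B0 cells do.

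The depth gap remained above the limit, and it bears on the results. Across 5 depth bands the B0 cells numbered 202, 82, 55, 67 and 42, whereas the BA10 cells numbered 796, 626, 468, 772 and 1116. The bands ran from 9013 to 11266, 11267 to 13519, 13520 to 18025 and 18026 to 27038 UMIs, and from 27039 UMIs up. Several results below are therefore also given with the cells of BA10 weighted to the share of each band in B0, or within the bands.

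The cells were not classified by type, and the level of marker lists is given instead. Genes of pachytene and later spermatocytes held a median of 1.84% of a cell's UMIs in B0 and 1.99% in BA10, and 1.66% in A0. Spermatid chromatin genes held a median of 0.010% in B0 and 0.018% in BA10, against 1.19% in A0. Cells in which Leydig genes took more than 2% of the UMIs numbered 15 of 448 in B0 and 91 of 3778 in BA10. Cells over 1% made up 4.46% of B0 and 3.12% of BA10.

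UMIs were summed over the cells of each library and expressed as counts per 1000000 UMIs (CPM), and each gene's log2 ratio of BA10 over B0 was taken after adding 1 CPM. Of the 7175 genes with a mean of at least 10 CPM over both pools, 81 were at least 2-fold higher in BA10 (1.13% of the genes) and 862 were at least 2-fold lower (12.0%). The other 86.9% lay within 2-fold, and the median over all genes was −0.06. With BA10 weighted to the depth bands of B0 the counts were 19 higher and 408 lower, and among cells under 2 times the limit they were 26 and 375, so the excess of lower genes remained and its size depended on depth. The share of lower genes went down with the level of the gene, from 18.3% of the 1762 genes at 10 to 20 CPM to 1.54% of the 390 genes at 500 CPM or more. Transcripts were also spread over fewer genes, since 453 genes held 50% of the UMIs in BA10, against 530 in B0, 523 in A0 and 502 in A10.

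The 10 largest differences toward B0 included genes of germ cells, of Sertoli cells and of the early stress response. Gm21119, a predicted gene of chromosome 8, stood at 43.3 CPM in B0 and 1.08 CPM in BA10, and at 9.49 CPM in A0 and 13.2 CPM in A10. Its log2 ratio was −4.41 (95% limits −4.63 to −4.18). Atp6ap1l, which resembles an accessory subunit of the proton pump ATPase, stood at 93.6 CPM in B0 and 7.55 CPM in BA10 (log2 ratio −3.47), and at 74.6 CPM in A0 and 143 CPM in A10. Both busulfan-free libraries were thus on the side of B0 for Atp6ap1l, and BA10 stood apart. Dnah3, a heavy chain of the axonemal dynein motor, was also lowest in BA10, with 52.0 CPM in B0, 6.78 in BA10, 62.3 in A0 and 63.7 in A10. Slc10a2, a bile acid carrier, was at 18.2 CPM in B0, 2.15 in BA10 and 16.3 in A10. Spdye4c, Cmtm1 and Gm3417 had log2 ratios of −2.60, −2.55 and −2.47, and for Gm3417 A0 was the highest library at 171 CPM.

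The remaining 3 of these 10 were low without busulfan. Rhox8, a homeobox gene of Sertoli cells on the X chromosome, was at 105 CPM in B0, 16.1 in BA10 and 4.63 in A0. Wfdc17, a secreted protein known from macrophages, was at 122 CPM in B0, 20.7 in BA10 and 1.07 in A0. Fos, an immediate early transcription factor, was at 22.9 CPM in B0, 3.29 in BA10 and 0.34 in A0. For these genes both busulfan libraries were above A0, and B0 was the highest.

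Among the 10 largest differences toward BA10, 3 were genes of spermatid chromatin, described with their neighbours further on. The largest belonged to BC061237, an uncharacterized gene of chromosome 14, at 2.92 CPM in B0 (20 UMIs in all), 43.2 in BA10, 52.9 in A0 and 50.6 in A10, with a log2 ratio of 3.50 (3.00 to 3.99). B0 was the low library here, and BA10 was close to the levels without busulfan. Pou5f2, a POU-domain transcription factor of spermatocytes, was at 20.4 CPM in B0, 90.9 in BA10, 43.1 in A0 and 56.6 in A10, a log2 ratio of 2.10 (1.87 to 2.34). BA10 was the highest of the 4 libraries for this gene in the pools. Within the bands the log2 ratios of Pou5f2 were 1.83, 1.16, 0.25 (−0.58 to 1.19), 0.53 and 1.39 from shallow to deep, all below the pooled value. Cenpt, a protein of the inner kinetochore, stood at 5.69 CPM in B0, 22.2 in BA10 and 6.20 in A0. Kat5, a histone acetyltransferase, was at 49.0 CPM in B0, 126 in BA10 and 53.1 in A0, and Rassf1, a microtubule-binding tumor suppressor, at 66.5, 172 and 80.9 CPM. Ccdc134 had a log2 ratio of 1.46 (1.27 to 1.66). Cenpt, Kat5, Rassf1 and Ccdc134 had in common that B0 and A0 differed less from each other than either did from BA10.

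**Figure D2:**
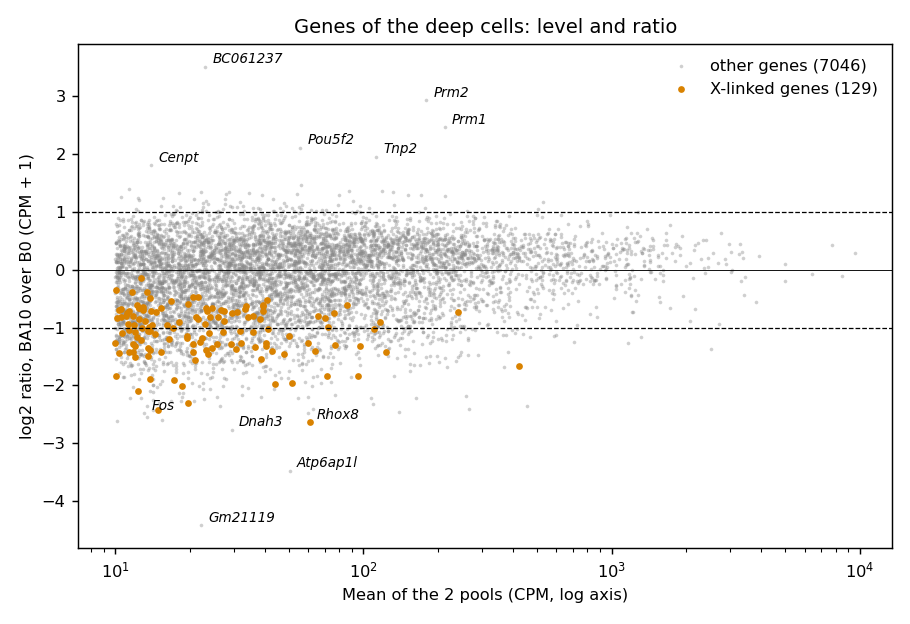
Log2 ratio of BA10 over B0 against the mean level of both pools (CPM, log axis) for the 7175 genes passing 10 CPM, with the 129 X-linked genes in orange and dashed lines at 2-fold. More genes lie below the lower line than above the upper one, and all orange points lie below 0.

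Depth was held apart in part by repeating the ratios within each band. The deepest band had no upper end, and its deepest cell held 55657 UMIs in B0 and 153556 in BA10. In all 5 bands 133 genes were at least 2-fold lower in BA10 and 4 genes were at least 2-fold higher, and all of them had been past 2-fold in the pools as well. The higher genes included BC061237, with band ratios from 2.57 to 4.39, Prm2 and Cenpt. BC061237 and Cenpt passed 10 CPM only through their level in BA10, so their calls are no support for a direction. The BC061237 ratios rested on 5, 3, 2, 4 and 6 UMIs in B0. Gm21119, Atp6ap1l, Dnah3, Rhox8, Slc10a2, Spdye4c, Cmtm1, Fos and Gm3417 were among the 133, and Wfdc17 was not. Of these, all but Rhox8, Gm3417 and Wfdc17 passed 10 CPM only through their level in B0, as did further genes of the 133. Such calls are no support for a direction. The bands are also parts of the same pools, so they add no independent support to the pooled calls. The following were singled out after their values were seen, for their level. Morf4l1, a chromodomain subunit of histone acetyltransferase complexes, was the most abundant of the 133, at 3621 CPM in B0, 1393 in BA10 and 2038 in A0, and its copy Morf4l1b, whose reads the counting may have split, was at 1644, 683 and 663 CPM. Tcte3, a dynein light chain with near-identical copies, was at 450 CPM in B0, 84.3 in BA10 and 77.9 in A0. The median cell held 429 CPM of Tcte3 in B0 and 78.2 CPM in BA10, so the difference ran through most cells and was not carried by a few. Defb19, a beta-defensin, was at 765 CPM in B0, 149 in BA10 and 26.4 in A0. Cep290 was at 278 and 90.7 CPM and Pcm1 at 174 and 69.2 CPM in B0 and BA10.

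For the spermatogonial stem cell list 3 of 19 genes in the table passed 10 CPM, with Id4, an inhibitor of differentiation, at 50.6 CPM in B0 and 74.6 in BA10, and Sdc4 at 32.4 and 9.53 CPM. Among 6 spermatogonial differentiation genes tested 1 was at least 2-fold higher, against 1.13% of all genes. It was Noc4l, a nucleolar protein, at 19.2 and 44.3 CPM. Dazl, an RNA-binding protein of germ cells, was at 28.3 and 28.0 CPM, and Stk31 at 79.0 and 62.9 CPM. Dmrtb1, which controls the entry into meiosis, was at 851 and 1151 CPM, and at 927 CPM in A0. The medians were −0.06 and 0.21 on the log2 scale.

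Of 19 meiotic prophase genes tested 2 were at least 2-fold lower in BA10 and 0 higher, against 12.0% and 1.13% of all genes. The list's median was −0.37. The synaptonemal complex genes Syce1 and Sycp3 were at 776 and 344 CPM in B0 and at 854 and 304 in BA10. Syce3, of the same complex, was at 345 and 222 CPM, Smc1b, a meiotic cohesin, at 319 and 220 CPM, and Majin, which ties telomeres to the nuclear envelope, at 10.1 and 17.3 CPM. Sycp1, the transverse filament of the same complex, was at 265 CPM in B0, 117 in BA10 and 135 in A0, a log2 ratio of −1.17 (−1.24 to −1.10), and it was picked out because it was past 2-fold. Tex15, needed for chromosome synapsis and double-strand break repair, was at 39.4 CPM in B0, 8.71 in BA10 and 41.7 in A0, a log2 ratio of −2.06 (−2.25 to −1.86). Tex15 was among the 133 genes lower in every band, but it passed 10 CPM only through its level in B0. Its call is therefore no support for a direction. The list's median was −0.22, −0.35, −0.36, −0.09 and −0.32 in the bands from shallow to deep.

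Pachytene and later spermatocyte genes leaned the other way. Of 18 tested 1 was at least 2-fold higher, against 1.13% of all genes, and 0 were lower. The median was 0.27, with band medians from 0.13 to 0.46. Of the 18 genes 11 were above 0, and the log2 ratio of the summed levels was 0.13. Over all genes the median went up with level, from −0.31 at 10 to 20 CPM to 0.15 at 500 CPM or more. The list was not compared with genes of like level. Meig1, needed for spermiogenesis and the most abundant of the list, was at 8836 CPM in B0 and 8170.4 in BA10, and Spink2, a protease inhibitor, at 1722 and 2051 CPM. Tcp11, a testis protein of sperm function, was at 1265 CPM in B0, 1680.2 in BA10 and 2020 in A0, and the gene past 2-fold was Pou5f2. Ybx2, the germ cell Y-box protein that stores messenger RNA, was at 858 CPM in B0, 1702 in BA10 and 839 in A0, a log2 ratio of 0.99 (0.95 to 1.03), just short of 2-fold. Mybl1, a master transcription factor of pachytene, was at 50.1 and 29.6 CPM. All 23 meiotic division genes tested lay within 2-fold, with a median of 0.12. Pttg1, the securin, was at 388 CPM in B0 and 450.5 in BA10, Aurka, a spindle kinase, at 332 and 484 CPM, Ccnb2 at 401 and 380.5 CPM and Cdc20 at 264 and 370.1 CPM. Cks2, a cyclin-dependent kinase subunit, was the highest at 198 CPM in B0 and 367 in BA10, and Cdc25a, a phosphatase that activates the kinases, the lowest at 73.8 and 44.7 CPM. Of 18 piRNA pathway genes, which protect the germ line from transposons, 1 was lower, against 12.0% of all genes. That gene was Rnf17, a tudor-domain protein, at 106 CPM in B0, 46.9 in BA10 and 133 in A0. Mael stood at 1061 and 1724 CPM, Gtsf1 at 940.1 and 1033 CPM and Ddx4 at 292 and 251 CPM, and Henmt1, which methylates the ends of piRNAs, at 30.5 and 53.8 CPM, and the list's median was 0.03.

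The list medians of acrosome and sperm tail genes were below 0, while several of their most abundant members were above 0. Of 24 acrosome genes tested 8 were at least 2-fold lower, against 12.0% of all genes, and the median was −0.85. Within the bands 2, 1, 1, 3 and 11 of them were at least 2-fold lower, and 0 were lower in all 5. Of all 7175 genes 303, 698, 435, 474 and 1106 were lower in these bands. The count thus rested on the deepest band, where lower genes were also most numerous over all genes. Spam1, a hyaluronidase of the acrosome, was the lowest at 51.5 CPM in B0, 18.8 in BA10 and 81.6 in A0. Tmem190, Acrv1, Lyzl4, Lyzl6, Eqtn, Spaca6 and Spaca7 were the other 7, and all of them were higher in A0 than in B0. Against this Crisp2 was at 1296 CPM in B0 and 1647 in BA10, Ccdc136 at 1214 and 1201 CPM, Zpbp2 at 804 and 887 CPM, and Acrbp at 534 and 735 CPM. The sum over the list was 7474 CPM in B0 and 7092 in BA10. The median was −0.50 with the depth bands weighted, and 15 of the 24 genes were below 0 and 6 above 0 in all 5 bands. Over all cells, without the UMI limit, the median was on the other side of 0, at 0.68, as it was for the sperm tail at 1.08 and for meiotic prophase at 0.45.

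Of 34 sperm tail genes 5 were at least 2-fold lower, a share near the 12.0% of all genes. Within the bands 2, 1, 1, 2 and 9 were lower, against 303, 698, 435, 474 and 1106 of all 7175 genes. The median was −0.47, and −0.38 with the bands weighted, while the summed level was slightly higher in BA10, at 13749 CPM against 12838 in B0, so the median and the sum differed in sign. Fsip2, a fibrous sheath protein, was the lowest at 258 CPM in B0, 81.4 in BA10 and 272 in A0 and was lower in all 5 bands. The other 4 were Fsip1, Cfap44, Odf3 and Odf1, the last an outer dense fiber protein at 69.0, 28.8 and 116 CPM in B0, BA10 and A0. Rsph1, a radial spoke protein, was at 2169 and 3356 CPM and Ropn1l at 3004 and 3717 CPM in B0 and BA10. Odf2, Tekt1 and Tekt5 had log2 ratios of 0.28, 0.19 and 0.79. The 5 testis-specific serine kinases tested all lay below 0, from −1.02 for Tssk5 to −0.66 for Tssk1, with a median of −0.79. The weighted median of that list was −0.47.

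Among regulators of meiosis and spermatids 2 of 13 were at least 2-fold lower, Sox5 and Zfp37, against 12.0% of all genes, and the median was −0.31. Crem, the activator of spermatid genes, was at 357 CPM in B0, 354 in BA10 and 467 in A0, Tbpl1, a TATA-binding protein relative, at 1021, 1295 and 888 CPM, and Tcfl5, which acts in pachytene, at 186, 315 and 154 CPM. The 10 testis isoforms of metabolic enzymes stayed within 2-fold with a median of 0.20, led by Ldhc, the sperm lactate dehydrogenase, at 6630.1 CPM in B0 and 8851 in BA10. Ldhal6b and Pgk2 had log2 ratios of 0.49 and 0.20, and Aldoart1, a sperm aldolase, was the lowest at −0.99. Of 6 somatic isoforms 2 were lower, against 12.0% of all genes, and the median was −0.61. The lower ones were Ldhb at 142 and 49.0 CPM and Cycs, somatic cytochrome c, at 219 and 83.7 CPM. Ldha was at 942 and 1465 CPM, and the summed level of the somatic isoforms was 1771 CPM in B0 and 1958 in BA10, again on the other side of 0 from the median.

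**Figure D3:**
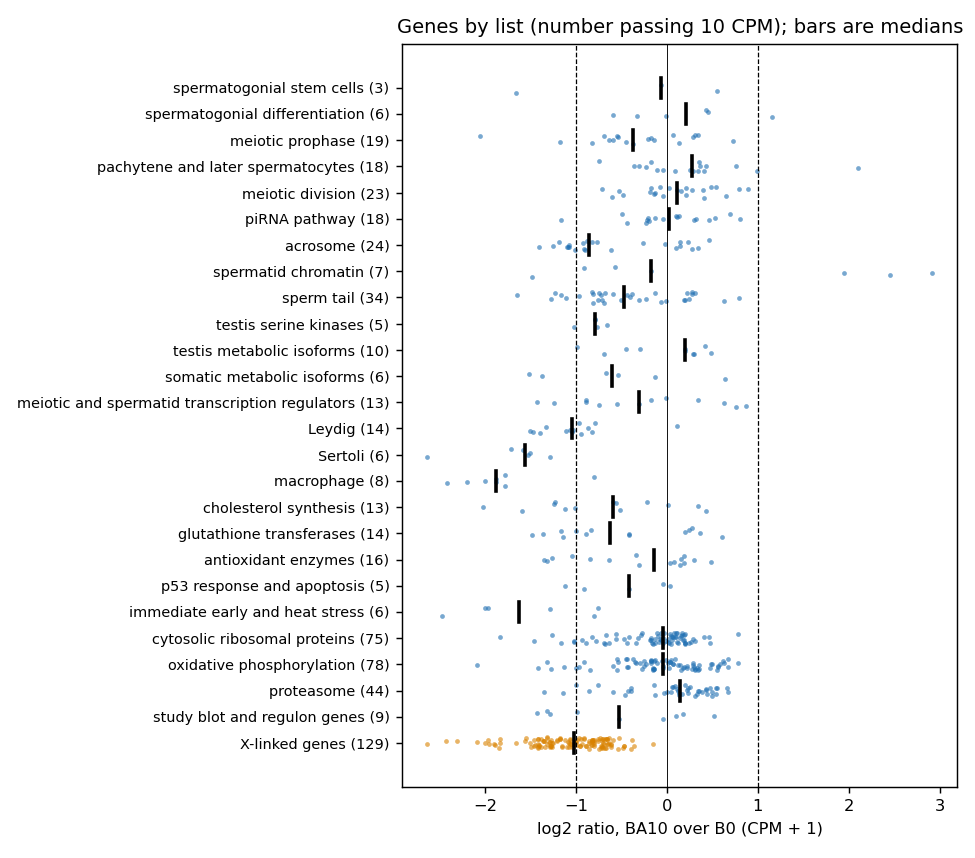
Log2 ratio of BA10 over B0 for each gene passing 10 CPM, by gene list, with the number of genes in brackets, black bars at the medians and dashed lines at 2-fold. The medians of the Leydig (−1.04), Sertoli (−1.56), macrophage (−1.88), immediate early (−1.63) and X-linked genes (−1.02) lie beyond 2-fold on the B0 side.

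The spermatid chromatin genes differed in opposite directions. Of 7 genes 3 were at least 2-fold higher in BA10 and 1 lower, against 1.13% and 12.0% of all genes. The median was −0.17, while the summed level was 1146 CPM in B0 and 1385 in BA10. Prm1, which encodes a protamine, stood at 64.9 CPM in B0, 360 in BA10, 11377 in A0 and 14688 in A10, and its log2 ratio was 2.45 (2.32 to 2.59). Prm2, which encodes the other protamine, stood at 41.0 CPM in B0, 316 in BA10, 14379 in A0 and 14219 in A10, a log2 ratio of 2.92 (2.75 to 3.09). Tnp2, a transition protein, stood at 45.8, 179, 6979 and 7120 CPM in the same order, a log2 ratio of 1.95 (1.79 to 2.11). Both busulfan libraries were far below the libraries without busulfan for these 3 genes, and BA10 was above B0.

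The pooled levels of the remaining 4 genes were lower in BA10, of which only Prm3 was past 2-fold. Prm3, a small acidic protein encoded between Prm2 and Tnp2, stood at 388 CPM in B0, 138 in BA10 and 959 in A0, and its log2 ratio was −1.48 (−1.54 to −1.42). Hils1, a spermatid linker histone, was at 382 CPM in B0, 202 in BA10 and 1406 in A0, and H1fnt, another linker histone, at 45.3, 30.3 and 751 CPM. Tnp1, the major transition protein, was at 179, 159 and 4403 CPM, a log2 ratio of −0.17 (−0.26 to −0.09), which was −0.05 (−0.14 to 0.04) without the single B0 cell described next. In the depth bands Prm3 ranged from −1.41 to −0.26, whereas Prm1 ranged from 0.72 to 8.23 and Tnp1 from −0.59 to 2.53. The Prm1 value of 8.23 (7.03 to 9.33) rested on 3 UMIs in 67 B0 cells. The value of 0.72 came from the band of that single B0 cell, which held 244 of the band's 328 Prm1 UMIs. The Prm1 range is therefore not read as an effect of depth. The list's median changed sign with the setting, to 0.11 with the depth bands weighted and to 0.89 for the members with a mean of at least 50 CPM.

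**Figure D4:**
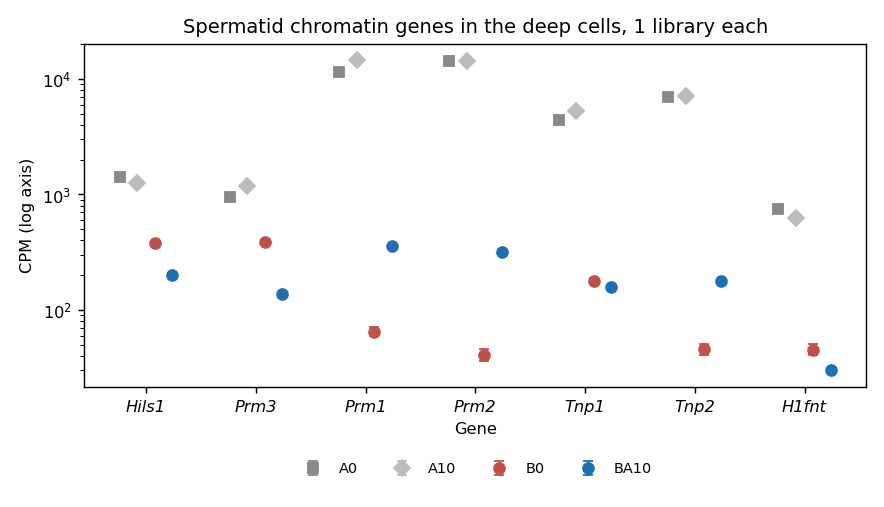
Level (CPM, log axis) of the 7 spermatid chromatin genes in the pooled deep cells of A0, A10, B0 and BA10, with exact Poisson 95% limits, which are mostly smaller than the symbols. BA10 (blue) lies above B0 (red) for Prm1, Prm2 and Tnp2 and below it for Prm3, Hils1 and H1fnt.

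Few cells of either library held many Prm1 transcripts. Cells with at least 10 Prm1 UMIs numbered 4 of 448 in B0 (0.893%, exact binomial 95% interval 0.244 to 2.27) and 58 of 3778 in BA10 (1.54%, 1.17 to 1.98). Thinned to 9013 UMIs the shares were 0.893% (0.244 to 2.27) and 1.14% (0.825 to 1.53). These intervals cover the counting of cells within 1 library a side and do not test the treatment. A single B0 cell held 244 of the 445 Prm1 UMIs of its pool, and without it Prm1 was at 29.4 CPM and its log2 ratio at 3.57 (3.38 to 3.77). This value lies outside the pooled limits of 2.32 to 2.59, which do not cover the uneven spread of UMIs over cells. Without that cell the log2 ratios of Prm2 and Tnp2 were 3.74 and 2.57, and that of Prm3 was −1.45. The 58 BA10 cells held 29541 of the 32842 Prm1 UMIs.

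A low number of Prm1 UMIs was widespread in BA10. At least 1 UMI was found in 8.93% of the B0 cells and in 54.6% of the BA10 cells, and after thinning in 7.59% and 30.8%. Cells with over 2% Leydig UMIs, which should lack the gene, held a Prm1 UMI in 36.3% of 91 cells in BA10, in 33.0% after thinning (23.5 to 43.6) and in 0 of 15 in B0 (up to 21.8%), at median depths of 10732 and 10630 UMIs before thinning. After thinning the share in all BA10 cells lay within the wide interval of its Leydig-rich cells. Whether the low counts came from the cells themselves was not tested, and they are not read as expression or as its absence. In cells with fewer than 10 Prm1 UMIs the pooled level was 7.06 CPM in B0 and 36.7 CPM in BA10, and it was 705 CPM in the few such A0 cells. Prm3 differed from this pattern. Cells with at least 10 Prm3 UMIs made up 20.8% of B0 (17.1 to 24.8) and 7.76% of BA10 (6.92 to 8.66), and after thinning 17.2% (13.8 to 21.01) and 5.48% (4.78 to 6.25). For Tnp1 the thinned shares were 6.47% (4.38 to 9.16) and 2.41% (1.94 to 2.95).

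Prm1, Prm2, Prm3 and Tnp2 lie next to each other on the same strand of chromosome 16, whereas Tnp1 lies on chromosome 1. The 150 bases before each start site are shown because neighbours of this cluster differed in direction between the libraries. They are RefSeq sequences of build GRCm38.p6, all from the minus strand and written 5′ to 3′ up to the base before the start site, at chr16:10796824-10796973 for Prm1, chr16:10792106-10792255 for Prm2, chr16:10788656-10788805 for Tnp2, chr16:10790915-10791064 for Prm3 and chr1:73015900-73016049 for Tnp1. Capitals mark the letters TGANNTCA, the palindromic frame of the cyclic AMP response element searched on both strands, and TATAA, the core letters bound by the general transcription factor TBP, searched on the strand of the gene.
Prm1: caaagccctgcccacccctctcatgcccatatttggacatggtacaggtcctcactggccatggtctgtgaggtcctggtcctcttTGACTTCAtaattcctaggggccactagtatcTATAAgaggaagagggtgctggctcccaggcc
Prm2: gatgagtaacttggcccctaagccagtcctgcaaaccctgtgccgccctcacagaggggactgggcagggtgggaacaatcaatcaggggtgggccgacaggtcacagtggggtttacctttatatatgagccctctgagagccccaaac
Tnp2: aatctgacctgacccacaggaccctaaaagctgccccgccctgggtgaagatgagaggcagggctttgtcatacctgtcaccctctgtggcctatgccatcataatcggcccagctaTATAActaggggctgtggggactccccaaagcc
Prm3: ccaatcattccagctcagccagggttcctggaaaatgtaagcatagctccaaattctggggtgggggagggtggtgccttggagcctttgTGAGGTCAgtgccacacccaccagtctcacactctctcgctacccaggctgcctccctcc
Tnp1: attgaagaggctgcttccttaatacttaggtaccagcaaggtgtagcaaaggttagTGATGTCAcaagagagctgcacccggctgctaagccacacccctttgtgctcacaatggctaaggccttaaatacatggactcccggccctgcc
TGANNTCA was found in the window of Prm1, Prm3 and Tnp1 and not in those of Prm2 and Tnp2, and TATAA in those of Prm1 and Tnp2. Of 32851 promoter windows of the same length 8.37% held the first and 9.99% the second. As exact strings the letters did not separate Prm1, Prm2 and Tnp2 from Prm3. Variant forms were not searched, and the Prm2 window holds the run tatatat, which TATAA does not match. No conclusion about a promoter difference is therefore drawn. A match is a description of the sequence and not a measured binding site.

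The X chromosome stood apart from every autosome in the pools. X-linked genes gave 0.801% of the UMIs in B0 and 0.351% in BA10, against 0.912% in A0 and 0.880% in A10. These pooled shares are of the UMIs of genes matched to 1 locus of the genome annotation. Of the 129 X-linked genes tested 66 were at least 2-fold lower in BA10, compared with 12.0% of all genes and 10.9% of the 6786 autosomal genes. None of the 129 was above 0, and 3221 of the autosomal genes were. The median was −1.02 on the X chromosome, and autosome medians ran from −0.21 to 0.14, with 7.36% to 16.6% of genes lower. The X-linked figures depended on depth: 27 of the genes were at least 2-fold lower with the depth bands weighted, when 408 genes were lower in all, and the median was then −0.53.

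Within the bands the share of X-linked UMIs was lower in BA10 each time. Here and in the shares of cells below, the X-linked percent is of all UMIs of a cell, unlike in the pools. The mean over cells was 0.876%, 1.08%, 0.937%, 0.580% and 0.539% in B0 from the shallowest to the deepest band, and 0.684%, 0.604%, 0.576%, 0.360% and 0.224% in BA10. The share in BA10 was thus lower in deeper cells, and the gap to B0 was narrowest in the shallowest band. There 12 of the 129 genes were at least 2-fold lower, against 303 of all 7175 genes, and 34 were above 0, with a median of −0.29. In the deepest band 88 were lower, against 1106 of all 7175 genes, and 1 was above 0, with a median of −1.25. Across all 5 bands 74 of the genes were below 0 every time, 10 were at least 2-fold lower every time and 0 were above 0 every time. Cells with less than 0.5% X-linked UMIs made up 36.6% of B0 (32.1 to 41.3), 68.5% of BA10 (67.0 to 70.0) and 31.2% of A0 (30.1 to 32.2), and thinning to 9013 UMIs gave 37.5%, 68.5% and 31.2%.

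**Figure D5:**
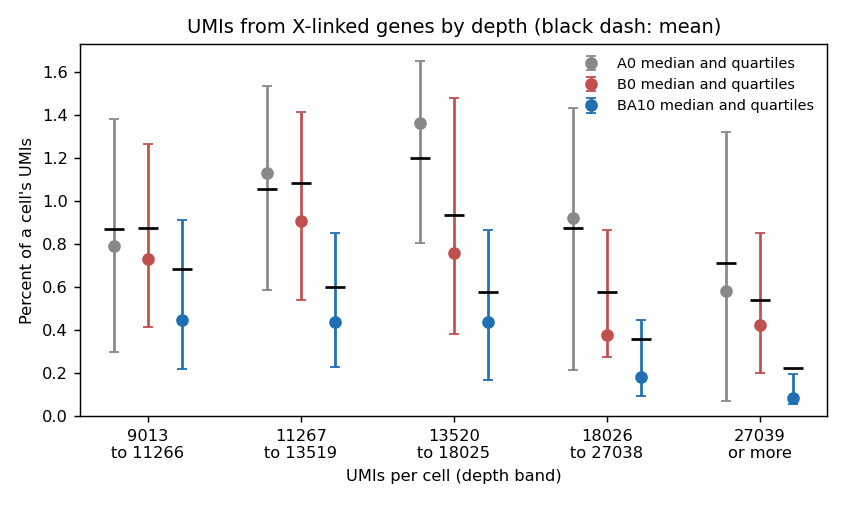
Percent of a cell's UMIs that came from X-linked genes, by depth band, for A0 (grey), B0 (red) and BA10 (blue), with medians as points, quartiles as bars and means as black dashes. BA10 has the lowest median in each band, from 0.448% in the shallowest to 0.085% in the deepest, where B0 has 0.734% and 0.427%.

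X-linked genes of several kinds shared the direction, and those named here were picked for their level after the values were seen. Tmsb4x, the actin-binding thymosin beta 4, was the most abundant at 645 CPM in B0, 204 in BA10, 87.2 in A0 and 86.6 in A10, a log2 ratio of −1.66 (−1.70 to −1.61). The median cell held 533 CPM in B0 and 156 CPM in BA10. Tsga8, a testis-specific gene, stood at 300.3 CPM in B0, 180 in BA10, 545 in A0 and 467 in A10, a log2 ratio of −0.73. Akap4, the main fibrous sheath protein of the sperm tail, was at 95.3, 56.4, 664 and 558 CPM, and Cypt1, of the cysteine-rich perinuclear theca family, at 104, 67.5, 362 and 369 CPM. In the pools these spermatid genes were highest without busulfan and lowest in BA10. Within the bands the log2 ratios of Akap4 were −0.35, −0.54, −0.24 (−0.53 to 0.06), −0.12 (−0.41 to 0.20) and −0.84 from shallow to deep. Emd, which encodes emerin of the nuclear envelope, was at 153 CPM in B0, 81.2 in BA10 and 117 in A0.

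Of the 129 X-linked genes tested 72 stood higher in B0 than in A0. Among these 72, 52 were at least 2-fold lower in BA10, with a median of −1.27. The other 57 held 14 such genes, with a median of −0.80. The split uses the B0 level, which is also part of the ratio, so it is a description only. Rpl10 was at 148 CPM in B0, 72.1 in BA10 and 15.2 in A0, Rpl39 at 112, 30.6 and 3.05 CPM, and Ndufa1, of respiratory complex I, at 139, 55.0 and 13.1 CPM. Rhox8 and Rhox5 of the Sertoli list are X-linked too, and the part of somatic genes in the difference was not tested. Leaving out the cells with over 2% Leydig UMIs gave a median of −1.09 and pooled X-linked shares of 0.773% in B0 and 0.332% in BA10.

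Several X-linked genes have autosomal copies that spermatocytes use while the X chromosome is silent. Of 10 such pairs in the data 5 had both members past 10 CPM, and the X-linked member had the lower ratio in 5 of them in the pools. Among the pairs left out, Gk, with 0 CPM in B0, had a log2 ratio of 0.22 and its copy Gykl1 0.15. Since 0 of the 129 X-linked genes tested were above 0, the order within the 5 pairs was largely given and adds no support. The direction was not the same at every depth, since Rpl10 had a log2 ratio of 0.35 (0.19 to 0.51) in the shallowest band and −1.36 in the deepest. Rpl10l on chromosome 12 was at 158 CPM in B0 and 159 in BA10, Rpl39l on chromosome 16 at 1248 and 1130 CPM, and Rpl36al on chromosome 12 at 699 and 674 CPM, against log2 ratios of −1.02, −1.83 and −1.46 for Rpl10, Rpl39 and Rpl36a. Slc25a31, the testis adenine nucleotide carrier, was at 76.2 and 89.4 CPM, and its X-linked counterpart Slc25a5 at 69.2 and 30.6 CPM. Reads shared by such copies may have been split in the counting. On the Y chromosome 4 of 5 genes were at least 2-fold lower, and these 4 (Gm20826, Gm20815, Gm20777 and Gm20854) belong to repeated families whose counts are uncertain. The fifth, Eif2s3y, a translation factor, was at 24.8 CPM in B0, 13.5 in BA10 and 36.4 in A0.

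Genes of Leydig, Sertoli and macrophage cells were lower in BA10 than in B0, and their summed levels were lowest without busulfan. The Leydig genes summed to 2485 CPM in B0, 1261 in BA10 and 194 in A0. Of 14 Leydig genes tested 8 were at least 2-fold lower, with 0, 5, 5, 2 and 12 within the bands from shallow to deep, and the median was −1.04. Over all 7175 genes the band counts of lower genes were 303, 698, 435, 474 and 1106. Insl3, a hormone of Leydig cells, was at 355 CPM in B0, 124 in BA10 and 0.80 in A0, and Lcn2 at 601, 278 and 3.19 CPM. Apoc1, an apolipoprotein, was at 362, 130.1 and 1.34 CPM. Cyp17a1, an enzyme of androgen synthesis, was at 242 CPM in B0 and 133 in BA10. Fdx1, which passes electrons to the steroid enzymes, was the exception at 264 CPM in B0, 284 in BA10 and 154 in A0. The Leydig difference depended on depth, with a median of 0.29 in the shallowest band and −1.54 in the deepest, −0.23 with the bands weighted and −0.19 among cells under 2 times the limit. A UMI of Insl3 was found in 89.3% of the B0 cells and 61.2% of the BA10 cells, and after thinning in 81.0% and 36.7%, against 1.00% of the A0 cells, and germ cells should lack this gene. Cells with at least 10 Insl3 UMIs made up 6.03% and 3.57%. In the median cell Leydig genes held 0.155% of the UMIs in B0 and 0.059% in BA10. Without the cells over 2% Leydig UMIs the list's median was −1.51. Fewer cells of a type, less RNA per cell and less released RNA captured beside other cells cannot be told apart in such sums. Their parts in the difference were not tested.

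The other somatic lists differed in the same direction. Their counts within the bands are to be read beside the 303, 698, 435, 474 and 1106 lower genes of all 7175. All 6 Sertoli genes tested of 16 were at least 2-fold lower in the pools and 1, 4, 5, 5 and 6 within the bands, with a median of −1.56 and a summed level of 845 CPM in B0, 281 in BA10 and 49.2 in A0. Clu, a secreted chaperone, was at 317 CPM in B0, 109 in BA10 and 9.75 in A0, Inha, an inhibin subunit, at 90.2, 29.4 and 4.36 CPM, and the defining Sertoli genes Sox9 and Wt1 at 7.87 and 7.14 CPM in B0 and 1.66 and 2.71 CPM in BA10. Of 8 macrophage genes tested of 16, 7 were lower in the pools and 1, 8, 3, 6 and 6 within the bands, with a median of −1.88 and sums of 343, 86.5 and 21.8 CPM. Cd74, of antigen presentation, was at 51.0 CPM in B0, 14.1 in BA10 and 1.48 in A0. C1qa, a complement subunit, was at 52.3 CPM in B0, 12.3 in BA10 and 1.03 in A0, and Lyz2, a lysozyme, at 24.5, 3.78 and 0.39 CPM. Sertoli band medians ran from −0.72 in the shallowest to −1.60 in the deepest, and the macrophage medians lay between −2.61 and −0.64. Weighted to the bands of B0 the medians were −1.16 and −1.39. Of 12 genes of myoid cells and fibroblasts, Dcn and Actg2 passed 10 CPM, at log2 ratios of −0.99 and −0.96, and Actg2 was highest in A0 at 308 CPM. No endothelial gene passed 10 CPM, and that list summed to 34.3 CPM in B0 and 11.7 in BA10.

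Genes of cholesterol synthesis and of glutathione conjugation were mixed. Their counts within the bands stand beside 303, 698, 435, 474 and 1106 lower genes of all 7175. Of 13 cholesterol synthesis genes 6 were at least 2-fold lower, with 1, 5, 3, 4 and 5 within the bands, the median was −0.59, and the sum was 849 CPM in B0 and 797 in BA10. Idi1, an isomerase of the pathway, was at 24.2 CPM in B0, 5.18 in BA10 and 5.75 in A0, while Fdft1, which makes squalene, was at 342, 462 and 327 CPM. Of 14 glutathione transferases 5 were lower, with 0, 2, 1, 2 and 5 within the bands. Gstm1 was at 655 CPM in B0, 367 in BA10 and 9.73 in A0. Gstm2 was at 251 CPM in B0, 111 in BA10 and 5.69 in A0 and Gstm7 at 53.1, 18.3 and 4.38 CPM, whereas Gstm5, the abundant form of germ cells, was at 3587, 4242 and 3859.6 CPM. That list's median was −0.63 and became −0.03 with the bands weighted, and its sum was 5280 CPM in B0 and 5380 in BA10.

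The antioxidant and stress genes that were at least 2-fold lower in BA10 had low levels in A0, except for Jund. Of 16 antioxidant enzymes 4 were at least 2-fold lower, against 12.0% of all genes. They were Prdx2, Gpx1, Txn1 and Prdx3, and each was below 9 CPM in A0. Gpx4, the selenoenzyme of sperm, was at 2728 CPM in B0, 3347 in BA10 and 3316 in A0, and Sod2 at 525, 583 and 429 CPM. The median was −0.14 and changed sign with the bands weighted, to 0.02. The 17 immediate early and heat stress genes summed to 268 CPM in B0 and 98.0 in BA10. Of 6 that passed 10 CPM, Fos, Ier2, Junb and Jund were at least 2-fold lower, but Fos, Ier2 and Junb passed only through their level in B0, so that count is no support for a direction. The same holds for 5 of the 8 macrophage genes, 2 of the 6 Sertoli genes and 4 of the 13 cholesterol synthesis genes. It also holds for 1 gene each of the stem cell, meiotic prophase, regulator, serine kinase, glutathione transferase, antioxidant, oxidative phosphorylation and p53 lists. Sdc4 and Cox7a1 are among them. X-linked genes such as Bex2 and Syap1 and the Y-linked Gm20815 and Gm20777 passed in the same way. Junb was at 24.8 CPM in B0, 5.59 in BA10 and 1.04 in A0. Of 5 genes of the p53 response 1 was lower, Cdkn1a, a cell cycle inhibitor, at 15.5 CPM in B0, 6.57 in BA10 and 6.09 in A0. Cdkn1a passed only through its level in B0, so this count is no support for a direction either. Trp53 itself was at 15.6 and 16.0 CPM, Mdm2 at 138 and 133 CPM and Bax, which promotes apoptosis, at 28.1 and 14.4 CPM, and the list's median was −0.41.

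The large protein complexes stayed close to 0. The 75 cytosolic ribosomal protein genes had a median of −0.04, the 78 oxidative phosphorylation genes −0.04 and the 44 proteasome genes 0.15. Ribosomal genes held 7.14% of the UMIs of the median cell in B0, 6.15% in BA10 and 4.06% in A0. Of the 6 ribosomal genes at least 2-fold lower, 4 (Rpl10, Rpl39, Rps4x and Rpl36a) were X-linked and the other two were Rps28 and Rpl34. Rps28 was at 1824 CPM in B0, 816 in BA10 and 392 in A0 and was lower in all 5 bands. Of the 5 oxidative phosphorylation genes lower, 3 (Ndufa1, Ndufb11 and Cox7b) were X-linked, and Cox7a1, the heart and muscle form of a cytochrome oxidase subunit, was at 22.9 CPM in B0, 4.62 in BA10 and 0.345 in A0. The most abundant ribosomal gene, Rpl41, was at 4552 CPM in B0 and 3083 in BA10, and Rpl4 had the highest ratio of that list at 0.78. Cox8c, a testis form of a cytochrome oxidase subunit, was at 2700 CPM in B0 and 3047 in BA10. The 3 proteasome genes lower were Psme4, the activator found with acetylated histones in spermatids, at 122 CPM in B0, 47.2 in BA10 and 94.7 in A0, and Psme1 and Psme2, of the interferon-induced activator.

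A final list held genes that the study followed at the protein level or as regulons in these samples, so their choice was not independent of the data. Of 9 tested 3 were at least 2-fold lower, with 0, 3, 1, 2 and 4 within the bands, and the median was −0.52. Gpx1, glutathione peroxidase, was at 77.8 CPM in B0, 30.5 in BA10 and 2.38 in A0. Zfp37, a zinc finger protein of spermatids, was at 62.2, 22.4 and 134 CPM, and Jund, a subunit of the AP-1 factor, at 44.5, 17.6 and 41.3 CPM. Piwil1, the pachytene piRNA protein, was at 228 CPM in B0, 221 in BA10 and 93.7 in A0. Lef1, a nuclear effector of Wnt signaling, was at 62.2, 89.9 and 39.0 CPM, and Elf2 at 175, 121 and 118 CPM. Sox6, Klf1 and Mapk3 had log2 ratios of −0.99, 0.10 and 0.18. The other 3 genes of the list were under 10 CPM, with Wt1 at 7.14 and 2.71 CPM, Egr4 at 2.33 and 5.34 CPM and Casp8 at 1.60 and 0.81 CPM in B0 and BA10. Lists of this size gave medians that were not tested against other lists, and the pooled share of lower genes in each is to be read beside the 12.0% of all genes. Counts within the bands are to be read beside the 303, 698, 435, 474 and 1106 lower genes of all 7175.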

How the data were processed

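Each library was 1 pool of 6 mice run on the 10x Genomics 3′ v2 chemistry, and the authors used Cell Ranger (2.2.0, per the submitters' processing notes) on build mm10 with a forced number of cells, then removed cells with few genes and genes in fewer than 3 cells. The deposited table holds natural log values, ln(1 + 10000 times a gene's share of the cell's UMIs), of 18419 genes in 27060 cells, and no mitochondrial genes. Whole UMIs were recovered from it, and 100% of the values above 0 came out whole within 0.001. The cells kept were those at or above the lowest UMI count of a BA10 cell, so the members were chosen by UMIs per cell. UMIs of the kept cells were summed per library (6859971 in B0 and 91304225 in BA10), scaled to CPM and compared as log2(CPM + 1), with 95% limits from exact Poisson intervals. That scale understates differences of low genes. Genes with a mean of at least 10 CPM were compared and 2-fold was the call. With 1 library a group no test was made. Shares of cells have exact Clopper-Pearson intervals. Intervals cover counting error only, not variation between mice or libraries.

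Doublets were called per library with Scrublet (scanpy 1.11.5, expected rate 6%), which marked 4 of 4659 B0 cells (0.0859%), 1 of them deep, and 48 of 3778 BA10 cells (1.27%). They were kept, and left out as an alternative. Of the gene symbols 95.1% matched 1 locus of GENCODE M21 (GRCm38). Strand and overlapping or copied genes were not resolved. NumPy 2.4.6, SciPy 1.17.1 and pandas 2.3.3 were used. The ratio and its limits were tested on pooled counts simulated as Poisson draws. These draws do not model UMIs gathered in few cells, so the limits of genes such as Prm1 were not checked by them.

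The UMI limit, the members and the 27 gene lists were chosen with earlier results of these data known. Genes were named by rule: the 10 largest differences each way, of each list the 4 most abundant members and the highest and lowest ratio, and all members of the spermatid chromatin and study lists. One gene that the rule names is not reported here. Other genes were picked after their values were seen: those past 2-fold in a list, the X-linked, Y-linked and copied genes, Cyp17a1, Dazl, Cep290, Pcm1, Morf4l1, Morf4l1b, Tcte3, Defb19, Rps28, Sycp1, Sox9 and Wt1. Alternatives were 10 CPM added, no filter or 50 CPM, centring on the median gene, a mean over cells, cells up to 2 times the limit, all cells, and no cells with over 2% Leydig UMIs or Scrublet calls. The depth bands, the weighting to them, and leaving out shared barcodes or a single cell were added after the data were seen.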

Additional observations from a re-analysis of the deposited data

Results flagged for a closer look

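The medians of the meiotic prophase, spermatid chromatin and Leydig lists were on opposite sides of 0 in the comparison of BA10 with B0 and in that of A10 with A0, and the difference between the comparisons was not tested. Other lists also were, such as Sertoli genes at −1.56 and 0.06. For meiotic prophase genes the median log2 ratio was −0.37 with busulfan and 0.03 without it. For spermatid chromatin genes it was −0.17 with busulfan and 0.03 without it. The value with busulfan was above 0 in some settings, at 0.11 weighted to the depth bands, 0.89 from 50 CPM and 1.38 over all cells. It was below 0 in the others. For Leydig genes it was −1.04 with busulfan and 0.16 without it, where these genes summed to 194 CPM in A0 and 203 CPM in A10.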

How the results depend on the processing

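No paired analysis was possible because each group had 1 library. The counts of genes at least 2-fold higher and lower (81 and 862) were 22 and 376 with 10 CPM added, 140 and 2113 with no filter, 32 and 264 from 50 CPM, 51 and 573 as a mean over cells, 26 and 375 among cells up to 2 times the limit, 1738 and 2895 over all cells, and 19 and 408 with the cells weighted to the depth bands of B0. Lower genes outnumbered higher genes in each of these settings. The meiotic prophase median (−0.37) was −0.22 with 10 CPM added, −0.18 with no filter, −0.19 from 50 CPM, −0.22 up to 2 times the limit and 0.45 over all cells. The acrosome median (−0.85) was −0.69 with 10 CPM added, −0.61 from 50 CPM, −0.61 as a mean over cells, −0.33 up to 2 times the limit, −0.50 weighted and 0.68 over all cells. The sperm tail median (−0.47) was −0.26 up to 2 times the limit and 1.08 over all cells. The pachytene median (0.27) was 1.77 over all cells, and the spermatid chromatin median (−0.17) was 1.38 there, 0.89 from 50 CPM and 0.11 weighted. The Leydig median (−1.04) was −0.89 with 10 CPM added, −0.58 as a mean over cells, −0.19 up to 2 times the limit, −0.23 weighted, −4.82 over all cells and −1.51 without cells over 2% Leydig UMIs. The X-linked median (−1.02) was −0.67 with 10 CPM added, −0.71 with no filter, −1.28 from 50 CPM, −0.72 as a mean over cells, −0.44 up to 2 times the limit, −0.53 weighted and −3.25 over all cells. The X-linked share, of the UMIs of genes matched to 1 locus, differed by −0.45 points in the pools and −0.40 as a mean over cells. It differed by −0.33 up to 2 times the limit, −0.32 weighted, −1.82 over all cells and −0.44 without cells over 2% Leydig UMIs. The antioxidant median (−0.14) was 0.079 from 50 CPM, 0.032 without cells over 2% Leydig UMIs and 0.023 weighted, and the ribosomal median was 0.021 when centred. Over all cells other medians and genes were also on the other side of 0, at −0.063 for spermatogonial differentiation, 0.80 for serine kinases, 0.89 for regulators, −0.24 for the proteasome, 0.13 for the study list, 0.28 for Acrv1, 0.16 for Cfap44, 0.50 for Eqtn, 0.36 for Fsip1, 0.48 for Lyzl4, 0.55 for Lyzl6, 0.33 for Odf1, 0.54 for Odf3, 0.17 for Prm3, 0.044 for Rnf17, 0.063 for Sox5, 0.55 for Spaca7, 0.21 for Spam1, 0.36 for Tmem190, 0.43 for Tssk5 and 0.034 for Zfp37. The all-cell setting adds the B0 cells below the limit, and the cause of the other shifts was not tested.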
